A study of Mus musculus with 6 samples.

Results

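Kinesins are motor proteins that use ATP to move along microtubules or to take microtubules apart. One set of them builds the mitotic spindle, aligns and moves chromosomes and completes cytokinesis, and its genes are transcribed mainly in dividing cells. Another set carries vesicles, endosomes, lysosomes and mitochondria and is needed in resting cells as well. In macrophages, transport motors position lysosomes and deliver membrane and proteases to podosomes, while mitotic kinesins are made in those cells that still divide under growth factor.

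Kinesin genes were taken by symbol (Kif followed by a number and at most 1 letter, or Kifc followed by 1 digit), which gave 39 of the 16775 genes in the tables. Of these, 35 reached at least 10 rounded counts in at least 1 library and are described here, among 12860 genes that did so. The 4 others were Kif17, with at most 9 counts in a library, Kif26a and Kif28 with at most 2, and Kif6 with at most 1; Kif21a, at 17 counts in its highest library, was the lowest member kept. The mitotic list holds 8 genes, Kif11, Kif15, Kif18b, Kif20a, Kif22, Kif23, Kif2c and Kif4, and all 8 passed. Of the 31 other kinesins 27 passed, and they were divided by role into 5 further genes of cell division, 12 transport kinesins and 10 remaining ones. The symbol rule leaves out Cenpe, the kinesin of the kinetochore, and Kifc5b, a close relative of Kifc1.

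The cells were macrophages from the bone marrow of C57BL/6 mice, cultured with M-CSF at 10 ng/ml over 5 days (M-CSF promotes macrophage growth and differentiation) before a treatment of 24 hours. The 5 compound groups were IL4 plus fatostatin, IL4 plus betulin, IL4 plus 25-HC, IL4 plus PF429424 and IL4 plus 1,10-Phen, and the control was IL4 alone. IL4, a cytokine of alternative activation, was thus present in all 6 libraries. The labels give neither doses nor a culture without IL4. Each treatment has 1 library, so no difference below has a replicate check, and each ratio compares 2 libraries; nothing in the labels says that they came from separate animals or cultures. All 5 comparisons share the IL4 library.

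Library totals lay between 20181396 and 21169667 estimated counts. All 8 macrophage markers examined, including Adgre1, Csf1r and Cd68, were present in every library, and none was called with fatostatin or betulin. With 25-HC 2 of them were called lower, Adgre1 at -1.27 and Mertk at -1.07, and 1 higher, at 1.47. With PF429424 Csf1r was at -1.01 and Mertk at -1.11, and with 1,10-Phen Fcgr1 at -1.865 and Mertk at -2.81. Of all genes, 6.01% were called lower with 25-HC, 6.18% with PF429424 and 11.5% with 1,10-Phen, and 3.23% were called higher with 25-HC. The summed level of the 8 macrophage markers was 66.7% of that with IL4 alone with 25-HC and 72.7% with 1,10-Phen. It was 81.7% with betulin, 97.6% with PF429424 and 106% with fatostatin. Markers of B, T and NK, erythroid and mast cells summed to at most 4.8 CPM (scaled counts per 1e6) for a cell type in any library. Neutrophil, stromal and myeloid progenitor markers were above that, at 812.6, 115.5 and 41.8 CPM with IL4 alone, and differed with some compounds; the part of these cells in the kinesin ratios was not tested. In bulk RNA, fewer cells of a type and less RNA per cell cannot be told apart.

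A ratio is the log2 ratio of a compound library to the IL4 library after scaling. A gene is called lower or higher when that ratio is at least 1 in size, which is 2-fold, and its exact Clopper-Pearson 95% interval excludes no change. These intervals cover counting error only.

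Mitotic kinesins were below their level with IL4 alone in all 5 compound libraries, by an amount that differed widely between compounds. Their summed counts were 72.3% of the IL4 level after scaling with fatostatin (95% interval 70.0 to 74.7%), 87.2% with betulin (84.5 to 89.9%), 57.6% with 25-HC (55.6 to 59.7%), 43.0% with PF429424 (41.3 to 44.7%) and 6.52% with 1,10-Phen (5.94 to 7.15%). The sums behind these were 6156, 7462, 5054, 3512 and 481 counts in the compound libraries, against 8542 with IL4 alone. In each of the 8 genes the compounds took the same order, lowest with 1,10-Phen, then PF429424, 25-HC and fatostatin, and highest with betulin. The same 8 genes were below 0 under the 2 other scalings tried, DESeq2 size factors and library totals.

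Kif11 encodes the motor that pushes the spindle poles apart. It held 1268 counts with fatostatin, 1570 with betulin, 1079 with 25-HC, 760 with PF429424 and 42 with 1,10-Phen, against 1882 with IL4 alone. Its log2 ratio was -1.24 with PF429424 (interval -1.37 to -1.12) and -5.22 with 1,10-Phen (interval -5.75 to -4.83). Kif15, a motor that can sustain spindle bipolarity when Kif11 fails, held 546, 657, 472, 294 and 36 counts in the same order of compounds, against 894 with IL4 alone. Kif15 had the lowest mitotic ratio in 3 of the libraries, at -0.70 with fatostatin, -0.45 with betulin and -1.53 with PF429424. Both spindle motors were thus lower in every compound library, with intervals that excluded no change.

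Kif20a and Kif23 work at the central spindle and in cytokinesis; Kif20a carries the chromosomal passenger complex there, and Kif23 is the motor subunit of centralspindlin. Kif20a had 1092 counts with fatostatin, 1317 with betulin, 815 with 25-HC, 579 with PF429424 and 43 with 1,10-Phen, against 1552 with IL4 alone. Kif23 had 1105, 1292, 839, 693 and 188 counts in the same order of compounds, against 1406 with IL4 alone. The pair differed in the 1,10-Phen library, where Kif20a stood at -4.91 (interval -5.43 to -4.53) and Kif23 at -2.68 (interval -2.92 to -2.47). Kif23 was also the only mitotic member not called with PF429424, at -0.95; with library totals as the scaling it stood at -1.08.

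Kif4 and Kif22 are chromokinesins, which bind chromosome arms. Kif4 held 623, 717, 539, 323 and 36 counts with fatostatin, betulin, 25-HC, PF429424 and 1,10-Phen, against 775 with IL4 alone. Kif22 held 571, 714, 500, 340 and 109 counts in the same order of compounds, against 770 with IL4 alone. With 1,10-Phen Kif4 stood at -4.15 (interval -4.74 to -3.73) and Kif22 at -2.59 (interval -2.91 to -2.32), which is the highest ratio of the list.

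Kif2c and Kif18b act at microtubule ends, Kif2c as a depolymerase that corrects faulty kinetochore attachments and Kif18b as its partner on astral microtubules. Kif2c held 524, 627, 384, 243 and 8 counts with fatostatin, betulin, 25-HC, PF429424 and 1,10-Phen, against 675 with IL4 alone. Kif18b held 427, 568, 426, 280 and 19 counts in the same order of compounds, against 588 with IL4 alone. Kif2c had the lowest ratio of the mitotic list with 1,10-Phen, -5.90 (interval -7.40 to -5.20), so that 1.37% of its IL4 level was left. Kif18b had the highest mitotic ratio with betulin, at -0.05 (interval -0.22 to 0.12), and with 25-HC, at -0.50.

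**Figure D1:**
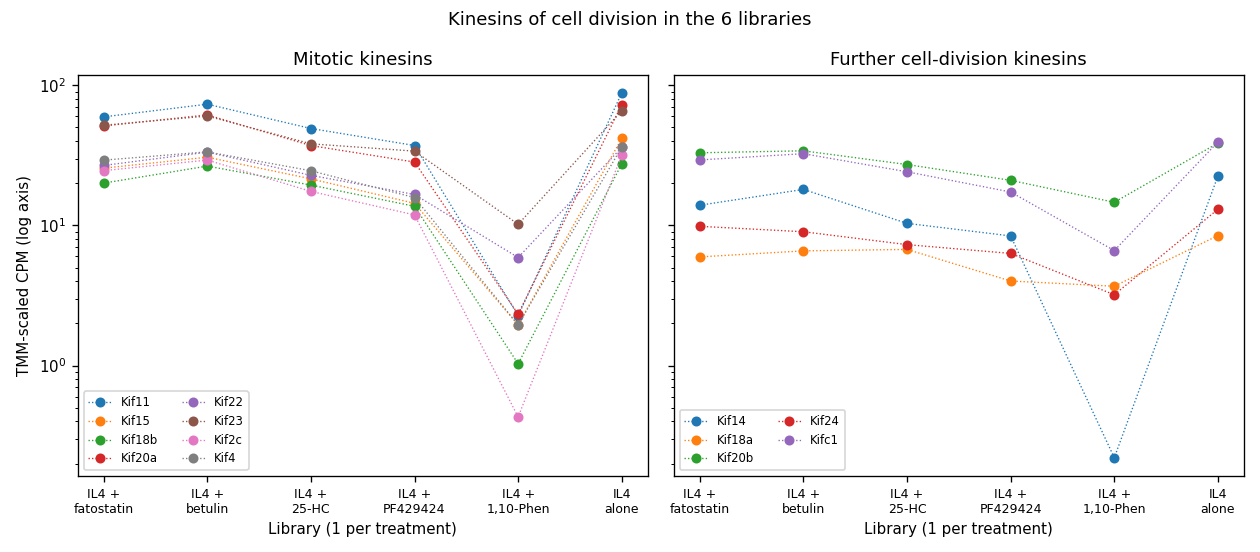
TMM-scaled CPM on a log axis of the 8 mitotic kinesins (left) and the 5 further kinesins of cell division (right) in the 5 compound libraries and the IL4 library; each point is 1 library, and dotted lines only join the points of 1 gene. All 13 genes are lower in the compound libraries than with IL4 alone, and in the 1,10-Phen library Kif2c and Kif14 have the lowest points, at 0.43 and 0.22 CPM.

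The promoters of the mitotic members are shown because these genes were lower together, and promoters of cell division genes are known to carry the cell cycle homology region, an element bound by the DREAM complex in resting cells, often beside CCAAT boxes bound by NF-Y. RefSeq windows on GRCm38.p6, from 250 bases before to 50 after a transcript start, were found for 27 of the 35 kinesins, among them 7 of the 8 mitotic ones. The letters TTTGAA, searched on both strands, occurred in 7 of 7 mitotic windows, in those of 3 of 5 further cell-division kinesins and in those of 3 of 15 other kinesins, against 17.9% of all 32851 windows and 12.4% of those of the genes compared. In 6 of the 7 mitotic windows such a match began within 30 bases of the start, as in the windows of 2 of 5 further cell-division and 1 of 15 other kinesins, against 2.0% of the windows of the genes compared. The letters CCAAT, also searched on both strands, occurred in 5 of 7 mitotic windows, in those of 3 of 5 further cell-division and 5 of 15 other kinesins, and in 37.8% of the windows of the genes compared. A gene with several windows was counted once. Some windows are not at the 5′ end of the gene: 1 of 7 mitotic, 1 of 5 further and 5 of 19 other windows start more than 250 bases inside it, and that of Kif2c starts 3852 bases inside it, so its sequence is not shown as a promoter. The sequences below run from 110 bases before the start to 30 bases after it on the strand of the gene, with matches to either motif on either strand in capitals. The first 6 are mitotic, Kifc1 is a further cell-division kinesin, and Kif1c and Kif3b are transport kinesins shown for contrast.
Kif11 (chr19:37376272-37376411, plus strand): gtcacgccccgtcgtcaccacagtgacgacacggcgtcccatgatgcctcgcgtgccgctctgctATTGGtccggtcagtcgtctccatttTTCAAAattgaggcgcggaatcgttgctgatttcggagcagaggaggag
Kif15 (chr9:122950971-122951110, plus strand): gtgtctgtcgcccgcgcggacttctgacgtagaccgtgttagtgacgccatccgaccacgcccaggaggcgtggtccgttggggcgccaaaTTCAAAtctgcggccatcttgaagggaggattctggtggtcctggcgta
Kif18b (chr11:102925095-102925234, minus strand): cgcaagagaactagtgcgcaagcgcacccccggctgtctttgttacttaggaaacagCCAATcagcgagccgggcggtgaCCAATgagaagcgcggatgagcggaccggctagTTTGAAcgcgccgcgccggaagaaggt
Kif22 (chr7:127042391-127042530, minus strand): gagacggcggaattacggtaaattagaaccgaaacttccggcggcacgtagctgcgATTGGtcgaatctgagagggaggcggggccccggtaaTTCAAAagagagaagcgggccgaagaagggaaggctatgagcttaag
Kif23 (chr9:61946770-61946909, minus strand): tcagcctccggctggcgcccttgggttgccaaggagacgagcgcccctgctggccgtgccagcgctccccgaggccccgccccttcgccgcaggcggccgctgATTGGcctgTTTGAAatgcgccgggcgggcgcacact
Kif4 (chrX:100625955-100626094, plus strand): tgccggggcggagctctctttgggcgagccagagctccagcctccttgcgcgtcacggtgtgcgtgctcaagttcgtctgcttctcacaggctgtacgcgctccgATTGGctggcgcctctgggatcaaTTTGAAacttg
Kifc1 (chr17:33890604-33890743, minus strand): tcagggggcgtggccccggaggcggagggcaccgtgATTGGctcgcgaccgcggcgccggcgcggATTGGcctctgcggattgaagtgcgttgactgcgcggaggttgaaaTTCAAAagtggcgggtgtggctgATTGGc
Kif1c (chr11:70700438-70700577, plus strand): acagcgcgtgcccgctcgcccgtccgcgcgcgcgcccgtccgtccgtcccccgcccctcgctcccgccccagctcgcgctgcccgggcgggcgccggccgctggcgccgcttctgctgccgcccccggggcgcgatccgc
Kif3b (chr2:153291306-153291445, plus strand): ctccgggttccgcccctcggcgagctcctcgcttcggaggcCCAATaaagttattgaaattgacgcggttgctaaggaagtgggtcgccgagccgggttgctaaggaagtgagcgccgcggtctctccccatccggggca

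In Kif11 the match to the cell cycle homology region lies 19 to 14 bases before the start and in Kif15 at the same distance, while in Kif18b it lies 4 to 9 bases, in Kif23 3 to 8 bases and in Kif4 20 to 25 bases after it. In Kif2c the only match lies 103 to 98 bases before the internal start that its window uses. A match in these letters is a description of the sequence and shows no binding.

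**Figure D2:**
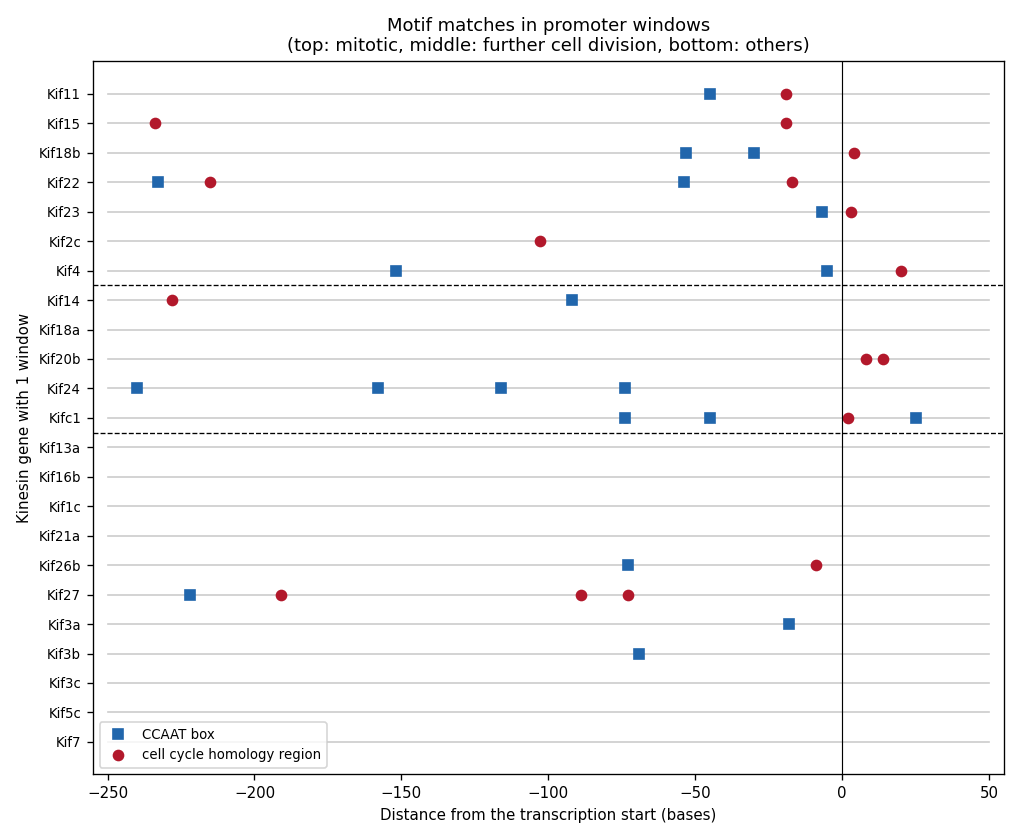
Distance in bases from the transcription start of each CCAAT box match (blue squares) and each match to the cell cycle homology region (red circles), for the 23 kinesins with 1 promoter window, with mitotic genes at the top, further cell-division genes in the middle and others at the bottom. Red circles lie within 30 bases of the start in 6 of 7 mitotic windows and at 103 bases before an internal start in Kif2c.

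No kinesin was called lower or higher in the fatostatin library, against 1.3% of all genes called lower and 1.06% called higher. The 8 mitotic members still stood between -0.70 and -0.31, each with an interval below 0, and their median was -0.44, against 0.001 over all genes compared. The 27 other kinesins had a median of -0.09, with 21 ratios below 0, and 7 of their intervals lay below 0 and 5 above 0, the 5 all being transport kinesins. Kif3a, a motor subunit of the heterotrimeric kinesin of intraflagellar and membrane transport, was the highest of those 5 at 0.43 (interval 0.31 to 0.55), with 1306 counts against 973 with IL4 alone. Neutrophil markers summed to 460.5 CPM in this library against 812.6 CPM with IL4 alone, but Mmp8 was the 1 called lower, at -2.46, and 8 of the 10 had intervals above 0. Progenitor markers summed to 74.4% of the IL4 level with 2 of 7 called lower, and stromal markers to 78.2% with none of 5 called.

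With betulin, none of the 8 mitotic kinesins and 1 of the 27 others was called lower, against 2.8% of all genes, and none was called higher, against 1.91% of all genes. The mitotic median was -0.12 and that of the others -0.16, so the lists did not separate by median in this library. Without the 5 further cell-division genes the median of the others was -0.08. Of the 27 others 16 lay below the highest mitotic member. The summed counts did differ, at 87.2% of the IL4 level for the mitotic list (interval 84.5 to 89.9%) and 100.2% for the others (98.5 to 102.0%). Only 4 of the 8 mitotic intervals excluded no change, those of Kif11, Kif15, Kif20a and Kif23. Kif9, a kinesin known in human macrophages for its role at podosomes, was the 1 called, with 42 counts against 91 with IL4 alone and a log2 ratio of -1.08 (interval -1.68 to -0.58). Of the 5 stromal markers 3 were called lower, with a sum of 37.0% of the IL4 level. Of 10 neutrophil markers 1 was called lower and 1 higher, and progenitor markers summed to 89.2% with none of 7 called.

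In the 25-HC library no mitotic kinesin and 7 of the 27 others were called lower, against 6.01% of all genes, and none was called higher, against 3.23%. Mitotic ratios nevertheless lay between -0.97 for Kif20a and -0.50 for Kif18b, all with intervals below 0, and their median of -0.81 compared with -0.33 for the others and -0.009 over all genes. The 7 called genes were Kif14, of cell division, and 6 with at most 187 counts in the IL4 library, namely Kif5a, Kif5c, Kif7, Kif9, Kif19a and Kifc2. With a minimum of 5 CPM in 1 library, 3 of the 7 calls were left. Kif5c, Kif9, Kif19a and Kifc2 fell under that minimum and were not compared, so their ratios were not checked by it. With log2(FPKM + 1) as the unit none of the 7 calls was left. In that unit Kif5c, Kif19a and Kifc2, at 0.54, 0.89 and 0.79 FPKM with IL4 alone, could not have been called lower at any value. Progenitor markers summed to 69.1% of the IL4 level in this library (interval 62.3 to 76.6%) with none of 7 called, and stromal markers to 65.7% with none of 5 called. Of 10 neutrophil markers 1 was called lower and 3 higher.

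The PF429424 library had 7 of 8 mitotic kinesins and 6 of 27 others called lower, against 6.18% of all genes. The mitotic median was -1.22 and that of the others -0.40, and it was -0.03 for the others without the 5 further cell-division genes. One other kinesin was called higher, against 2.43% of all genes. This was Kif27, a relative of the Hedgehog regulator Kif7, at 18 counts against 6 with IL4 alone, which is close to the counting floor. Kif27 passed the filter only through compound libraries, where it was higher. Neutrophil markers were lower in the same library, with 8 of 10 called lower and a summed level of 458 CPM against 813 CPM with IL4 alone. Myeloid progenitor markers, with 2 of 7 called lower, summed to 41.8% of their IL4 level after scaling (interval 36.9 to 47.3%). Stromal markers, with 2 of 5 called lower, summed to 43.0% (interval 39.97 to 46.3%), beside 43.0% for the mitotic kinesins.

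With 1,10-Phen all 8 mitotic kinesins and 8 of the 27 others were called lower, against 11.5% of all genes, and 2 others were called higher, against 8% of all genes. The mitotic median was -4.49 and that of the others 0.13, with 1 of 27 others, Kif14, below the highest mitotic member. Over all genes 1484 were called lower and 1029 higher in this library; with library totals as the scaling the counts were 2064 and 731, a scaling which put the all-gene median at -0.25. Within the mitotic list, 6 genes kept at most 5.38% of their IL4 level, whereas Kif22 kept 16.4% and Kif23 15.5%. The counting intervals of Kif22 and Kif23 did not overlap those of the 6. Of 7 genes of proliferating cells 6 were called lower, with Mki67 at -6.79 (94 counts against 12269) and Top2a at -5.40, while Pcna stood at -0.14.

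In the same library 6 of 7 myeloid progenitor markers were called lower, against 11.5% of all genes, with a sum of 6.34% of the IL4 level (interval 4.66 to 8.46%). Mpo had 7 counts against 238 with IL4 alone, Cd34 had 30 against 525, and Myb had 0 against 29. The summed level of these markers was small in both, at 2.7 CPM with 1,10-Phen and 41.8 CPM with IL4 alone, against 26.1 and 399 CPM for the 8 mitotic kinesins. Of 10 neutrophil markers 6 were called lower in this library, although Mmp8 stood at 0.67 and the summed level was 921 CPM against 813 CPM. Stromal markers summed to 110% of the IL4 level with none of 5 called.

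**Figure D3:**
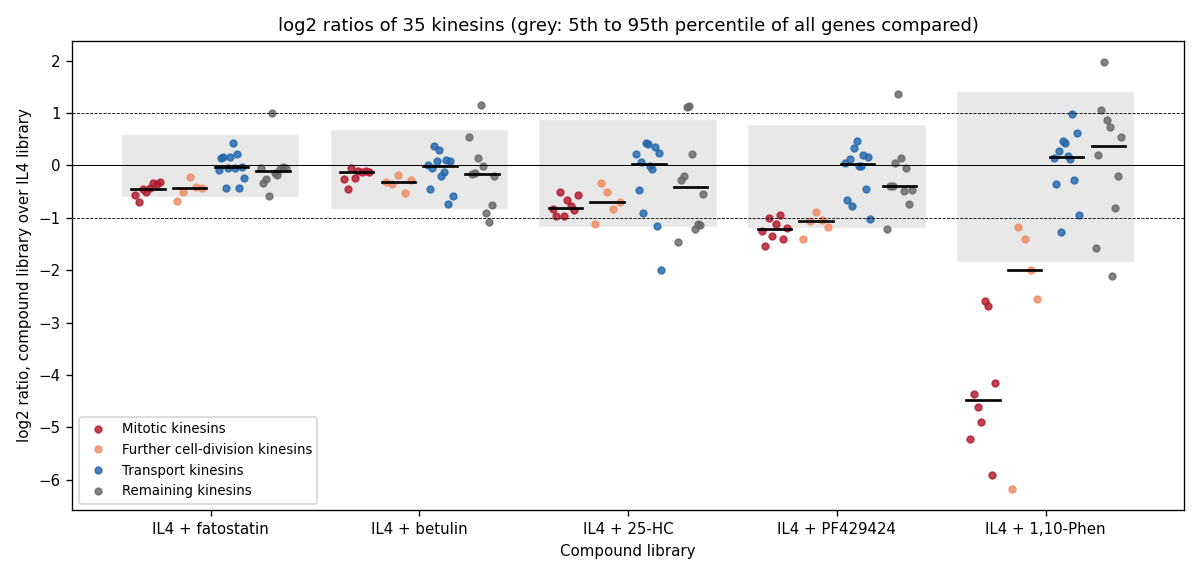
log2 ratio of each of 35 kinesins to the IL4 library, by compound library; points are genes, coloured by list, black bars are list medians, dashed lines mark 2-fold, and grey boxes span the 5th to 95th percentile of the 12860 genes compared. Mitotic medians run between -0.12 with betulin and -4.49 with 1,10-Phen, while transport medians stay between -0.03 and 0.16.

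The 5 further kinesins of cell division were also below 0 in all 5 compound libraries. This list was drawn up with earlier results of these data known, so their shared direction is not independent of the choice. Kif2a, a depolymerase of the Kif2c family placed on the remaining list, stood at -0.13, -0.004, 0.21, 0.14 and 0.74 with fatostatin, betulin, 25-HC, PF429424 and 1,10-Phen. Kif14, which binds citron kinase and Prc1 and is needed for cytokinesis, had the lowest ratio of the whole family with 1,10-Phen, -6.17 (interval -8.58 to -5.33). It held 297 counts with fatostatin, 387 with betulin, 227 with 25-HC, 172 with PF429424 and 4 with 1,10-Phen, against 481 with IL4 alone. Kif14 was called in 3 libraries, 25-HC, PF429424 and 1,10-Phen. Kifc1, a minus-end motor that focuses spindle poles, held 625, 696, 530, 354 and 122 counts in the same order of compounds, against 841 with IL4 alone. Its relative Kifc5b, which is not a member, held 107, 132, 91, 84 and 42 counts against 156 with IL4 alone. Reads of similar genes may be divided between such relatives by the estimation, so the separate values of Kifc1 and Kifc5b are uncertain; both were below 0 in all 5 comparisons.

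The other 3 kept a larger part of their level with 1,10-Phen. Kif18a, which dampens chromosome movement at the metaphase plate, held 127, 141, 148, 82 and 68 counts with fatostatin, betulin, 25-HC, PF429424 and 1,10-Phen, against 181 with IL4 alone. Kif20b, a motor of cytokinesis, held 703, 730, 597, 429 and 270 counts in the same order of compounds, against 827 with IL4 alone. Kif24, which removes microtubules at the mother centriole and holds back cilium formation, held 210, 193, 160, 129 and 59 counts, against 279 with IL4 alone. Their 1,10-Phen ratios were -1.18, -1.40 and -1.997, above all 8 mitotic members. Kif18a and Kif24 were called with PF429424, at -1.06 and -1.04, and Kif20b was not, at -0.88.

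Most partners of the mitotic kinesins were called lower with 1,10-Phen. Of 16 such genes none was called with fatostatin or betulin, 3 were called lower with 25-HC, 8 with PF429424 and 15 with 1,10-Phen, and none was called higher in any of the 5 libraries. All genes called lower were 1.3% with fatostatin, 2.8% with betulin, 6.01% with 25-HC, 6.18% with PF429424 and 11.5% with 1,10-Phen. Those called higher were 1.06% to 8%, so the absence of higher calls among 16 genes does not set the partners apart. Racgap1, the GTPase-activating subunit that joins Kif23 in centralspindlin, stood at -1.18 with PF429424 and -3.14 with 1,10-Phen, where Kif23 stood at -0.95 and -2.68. Aurkb, the kinase of the passenger complex that Kif20a carries, was at -1.56 and -4.48, where Kif20a was at -1.36 and -4.91. Prc1, the bundler of antiparallel microtubules that recruits Kif4, was at -1.20 and -2.99, where Kif4 was at -1.19 and -4.15. Numa1, a spindle pole protein that also has a place in the interphase nucleus, was the 1 partner not called with 1,10-Phen, at 0.22. Cenpe, the kinetochore kinesin outside the symbol rule, was at -0.89 with PF429424 and -2.65 with 1,10-Phen.

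No transport kinesin was called higher in any library. Over all genes 1.06% to 8% were called higher, so the absence of such calls among 12 genes does not set the list apart. Of the 12 measured, none was called with fatostatin or betulin, 2 were called lower with 25-HC, 1 with PF429424 and 1 with 1,10-Phen. Over all genes 6.01%, 6.18% and 11.5% were called lower in those libraries, so 1 call among 12 is near the background. The 4 calls fell on Kif5a, Kif5c and Kif1a, motors best known in neurons, which held at most 109 counts in the IL4 library. Summed over the list, the level was 105% of IL4 with fatostatin, 104% with betulin, 116% with 25-HC, 114% with PF429424 and 130% with 1,10-Phen, and the sums are dominated by 3 genes, Kif1c, Kif5b and Kif1b.

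Kif1c moves vesicles and regulates podosomes in human macrophages, and it had the highest FPKM (fragments per transcript length and library size) of the family in all 6 libraries. It was listed at 55 FPKM with fatostatin, 61.1 with betulin, 67.2 with 25-HC, 65.5 with PF429424 and 60.7 with 1,10-Phen, against 52.6 FPKM with IL4 alone. All 5 log2 ratios of Kif1c were above 0, between 0.16 with fatostatin and 0.47 with PF429424, with intervals above 0 and with the same sign under the other scalings. Kif5b, the widely expressed heavy chain of conventional kinesin, was the second highest, at 32.7, 34.97, 39.4, 35.3 and 44.2 FPKM in the same order of compounds, against 34.2 FPKM with IL4 alone. Its ratio was largest with 1,10-Phen, 0.62 (interval 0.57 to 0.68). Kif1b, a carrier of mitochondria and vesicles, stood at 16.5, 18.1, 23.3, 20.3 and 19.9 FPKM, against 17.5 FPKM with IL4 alone.

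No ratio of Kif3a or Kif3b, the motor subunits of heterotrimeric kinesin, was called. Kif3a held 1306, 851, 998, 925 and 955 counts with fatostatin, betulin, 25-HC, PF429424 and 1,10-Phen, against 973 with IL4 alone, and Kif3b held 1278, 1228, 1315, 1263 and 1259, against 1333 with IL4 alone. Kif3c, a further motor subunit of that family, had 893 counts with 1,10-Phen against 521 with IL4 alone, a log2 ratio of 0.99 (interval 0.83 to 1.15) that just missed the 2-fold size. Kif3c held 563 to 680 counts in the other 4 compound libraries. Kif16b, which moves early endosomes, held 1045, 911, 1002, 979 and 980 counts in the same order of compounds, against 935 with IL4 alone. Kif13a, a motor of recycling endosomes, ranged between 951 and 1215 counts, against 1018. Kif13b, a carrier of scaffold proteins to the cell periphery, held 2238, 1498, 1502, 1241 and 1382 counts, against 2037 with IL4 alone; its interval was above 0 with fatostatin and below 0 in the 4 other compound libraries, and it was not called. With library totals the 1,10-Phen ratios of Kif3a, Kif3b and Kif13a changed sign, to -0.07, -0.12 and -0.11.

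**Figure D4:**
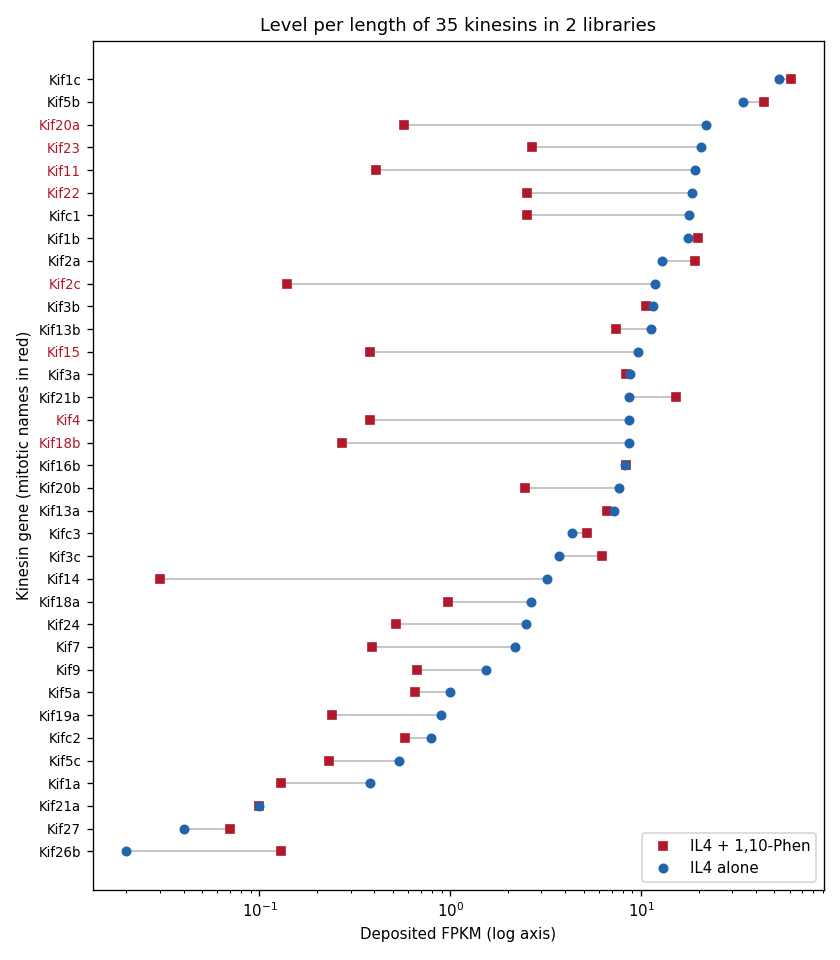
Deposited FPKM on a log axis of the 35 kinesins in the 1,10-Phen library (red squares) and the IL4 library (blue circles), ordered by the IL4 level, with mitotic names in red. Kif20a, Kif23 and Kif11 follow Kif1c and Kif5b in the IL4 library, at 21.9, 20.7 and 19.2 FPKM, and lie at 0.57, 2.68 and 0.41 FPKM with 1,10-Phen.

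Per length, the order of the family therefore differed between the IL4 library and the 1,10-Phen library, where the mitotic ratios were lowest. Mitotic kinesins held 4 of the 6 highest FPKM values with IL4 alone, Kif20a, Kif23, Kif11 and Kif22, below Kif1c at 52.6 and Kif5b at 34.2 FPKM. With 1,10-Phen the 6 highest were Kif1c, Kif5b, Kif1b, Kif2a, Kif21b and Kif3b, and the highest mitotic gene, Kif23, came 13th at 2.68 FPKM.

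Of the 10 remaining kinesins Kif21b and Kif26b were called higher with 1,10-Phen, against 8% of all genes. Kif21b, a motor that restrains microtubule growth and is known in neurons and lymphocytes, held 1344 counts with fatostatin, 1461 with betulin, 1440 with 25-HC, 1170 with PF429424 and 2920 with 1,10-Phen, against 1614 with IL4 alone. It was called higher with 1,10-Phen, at 1.07 (interval 0.98 to 1.16), and was below 0 in the 4 other compound libraries; with library totals the 1,10-Phen value was 0.82 and no longer called. Kif2a, a depolymerase of the same family as Kif2c but used in interphase as well, held 841, 925, 1100, 977 and 1332 counts in the same order of compounds, against 926 with IL4 alone. Kif2a was not called; with 1,10-Phen it stood at 0.74 (interval 0.62 to 0.86) while Kif2c stood at -5.90.

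Kinesins of cilia and of low level made up the rest. Kif7, the Hedgehog regulator of the ciliary tip, held 165, 99, 82, 127 and 36 counts with fatostatin, betulin, 25-HC, PF429424 and 1,10-Phen, against 187 with IL4 alone, and was called lower with 25-HC and 1,10-Phen at -1.21 and -2.11. Kif19a, which limits cilium length in mice, held 61, 93, 22, 25 and 17 counts, against 63 with IL4 alone, and was called lower with 25-HC, PF429424 and 1,10-Phen. Kif9 held 86, 42, 42, 84 and 44 counts, against 91 with IL4 alone. It was called lower with 25-HC as well as betulin, at -1.12, and stood at -0.08, -0.05 and -0.81 with fatostatin, PF429424 and 1,10-Phen. The interval of each of these calls spans at least 0.7 on the log2 scale.

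The remaining calls rested on low counts. Kif5a held 80, 65, 49, 76 and 77 counts with fatostatin, betulin, 25-HC, PF429424 and 1,10-Phen, against 109 with IL4 alone. Kif5c held 64, 50, 18, 35 and 33 counts in the same order of compounds, against 76 with IL4 alone. Kif5a was lowest with 25-HC, at -1.16, and so was Kif5c, at -1.995. Kif1a held 47, 84, 34, 35 and 22 counts, against 64 with IL4 alone, and Kifc2, a C-terminal motor, held 51, 30, 23, 29 and 39, against 52 with IL4 alone. Kif26b, a kinesin without known motor activity, held 4, 8, 18, 7 and 29 counts, against 7 with IL4 alone, and was called higher with 1,10-Phen at 1.98 (interval 1.04 to 3.70). Kif26b reached 10 counts only with 25-HC and 1,10-Phen, so its passing the filter and its higher call are not independent. Kif27 held 14, 16, 16, 18 and 11 counts, against 6 with IL4 alone, so all 5 compound libraries were above it. Its IL4 count was under the minimum of 10, so Kif27 passed the filter only through compound libraries. Only its PF429424 interval, 0.255 to 3.27, excluded no change, and all 5 ratios share the low IL4 count. Kif21a stayed between 12 and 17 counts in all 6 libraries. Kifc3, a minus-end motor linked to cell junctions, held 286, 259, 207, 203 and 372 counts with fatostatin, betulin, 25-HC, PF429424 and 1,10-Phen, against 296 with IL4 alone, and no ratio of it was called.

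**Figure D5:**
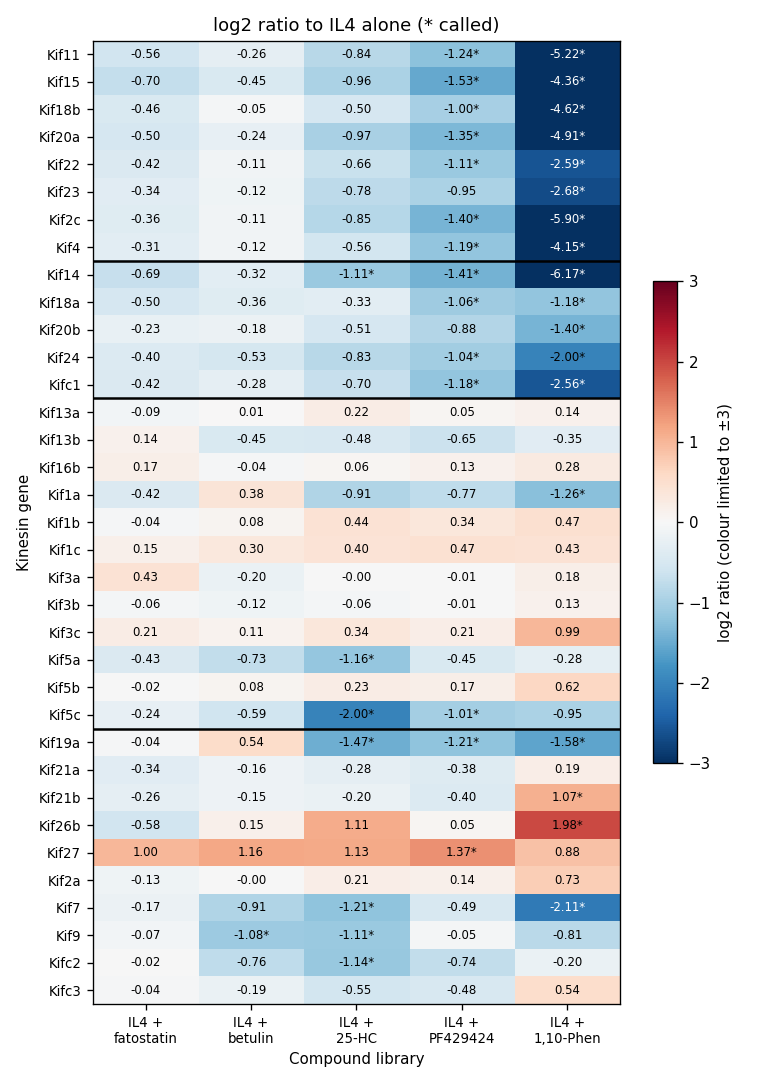
log2 ratio to the IL4 library of each of 35 kinesins (rows) in the 5 compound libraries (columns), with asterisks on called values and lines between the mitotic, further cell-division, transport and remaining lists; colour is limited to a log2 ratio of 3 in size. The upper 13 rows are below 0 in all columns and darkest with 1,10-Phen. The transport rows below them stay pale apart from lower values of Kif1a, Kif5a and Kif5c and a higher value of Kif3c, 0.99 with 1,10-Phen.

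Cargo adaptors and subunits of the transport motors and the opposing motor dynein were set beside the transport list. Of 18 measured adaptors and subunits, Mapk8ip1, a scaffold that links cargo to kinesin light chains, was called higher with betulin at 1.57 and with PF429424 at 1.65, with 123 and 124 counts against 40 with IL4 alone. With 1,10-Phen Mapk8ip1 went the other way, at 17 counts and -0.95 (interval -1.93 to -0.17), and was not called. With fatostatin and 25-HC it stood at 0.54 and 0.27, with intervals that included no change. Klc3, a light chain, was called lower with betulin at 3 counts against 15, and no other call was made among them in the 5 comparisons. Kifap3, which joins Kif3a and Kif3b, stood between -0.16 and -0.04, and Klc1, the most abundant of the 4 light chain genes in FPKM, between -0.22 and 0.04. None of the 14 measured dynein and dynactin genes was called in any comparison. All genes called lower made up 1.3% to 11.5% over the 5 comparisons and those called higher 1.06% to 8%, so such small counts set neither list apart. With 1,10-Phen the dynein and dynactin median was 0.25, beside 0.16 for the transport kinesins and -0.004 over all genes compared.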

How the data were processed

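Per the file headers, each deposited table gives an estimated count (expected count) per gene, unscaled between libraries, and an FPKM value that the authors normalised for length and depth. Not whole were 30.5% to 32.0% of the estimated counts, by library. HISAT2, Bowtie2, DESeq2 and RSEM 1.2.12 appear in the submitters' processing notes, with no role stated, and no source used here gives the strand setting. Chromosome accessions in the tables are those of GRCm38, and 99.3% of the gene IDs were in RefSeq GRCm38.p6.

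Counts were rounded, normalised by edgeR's TMM (version 4.0.16 under R 4.3.3) across all 6 libraries on 12860 genes with at least 10 counts in 1 library, and compared as log2 ratios with a prior count of 2. Calls needed a 2-fold ratio and an exact Clopper-Pearson 95% interval that excludes no change; intervals cover counting error only. With 1 library per treatment no test was run, and p-values are not given. The procedure was tested on simulated counts. At these depths 3 counts are 0.137 to 0.162 CPM.

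Members and lists were chosen with earlier results of these data known. The rule for named genes took both cell-division lists, each other member called in a comparison, the 10 members outside the mitotic list with the highest mean FPKM and, of each list without members, up to 4 called genes per comparison by size of ratio with at least 50 counts in a library. Other genes named were chosen after their values were seen. Promoters were also searched for TTTAAA and for E2F letters, held by 1 and at most 1 of the 7 mitotic windows. The promoter share within 30 bases of the start was also chosen after the positions were seen. Alternatives were library totals or DESeq2 1.42.0 size factors for scaling, no filter, minima of 1 and 5 CPM, prior counts of 0.5 and 10, log2(FPKM + 1), and the median of the 6 libraries as reference. Python 3.11.15 with SciPy 1.17.1 was used otherwise.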

Additional observations from a re-analysis of the deposited data

How the results depend on the processing

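The median ratio of the mitotic and of the other kinesins and their counts of calls, 25 results in all, were recomputed under 9 alternatives. Of the 225 values 194 stayed within the median counting interval of the members or, for counts, within 1.5 times, and 31 moved; the cause was not tested unless the alternative's own construction shows it. DESeq2 size factors and a prior count of 0.5 moved none. With the median of the 6 libraries as reference, mitotic medians were 0.13 with fatostatin, 0.43 with betulin, -0.13 with 25-HC, -0.595 with PF429424 and -3.93 with 1,10-Phen. The positive signs with fatostatin and betulin follow from the construction. In each of the 8 mitotic genes this reference lies between the 25-HC and fatostatin libraries, with IL4 above both. It therefore cannot check the sign of the ratios to IL4. Under the same reference the median of the others with 25-HC was -0.059. For this reference and for log2(FPKM + 1), calls used the 2-fold size alone, without an interval, which is a looser rule than in the report. The median reference called 0 mitotic kinesins lower with PF429424 (7 in the report), and among the others 0 lower with betulin, 1 with 25-HC, 0 with PF429424 and 5 with 1,10-Phen, and 1 higher with betulin, 1 with 25-HC and 0 with PF429424. With log2(FPKM + 1), which shrinks ratios of low genes, the mitotic median with 1,10-Phen was -2.93, and calls of others were 0 lower with betulin, 0 with 25-HC, 2 with PF429424 and 5 with 1,10-Phen, and 0 higher with PF429424 and 0 with 1,10-Phen. A prior count of 10 left 0 others lower with betulin, 3 lower and 0 higher with PF429424. A minimum of 5 CPM, which tests fewer genes, left 0 others lower with betulin and 3 with 25-HC, and 0 higher with PF429424 and 1 with 1,10-Phen. A minimum of 1 CPM left 0 higher with PF429424, no filter gave 1 higher with 25-HC, and library totals left 1 higher with 1,10-Phen. Depth limits the low members most: Kif26b, Kif27 and Kif21a never passed 29 counts. No paired analysis was possible because each treatment has 1 library.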
